A study of Mus musculus with 12 samples.

Results

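A set of 7 genes of the germ line and of the 2-cell-like state of embryonic stem (ES) cells was followed through induction of the transcription factor fusion Tcf15-E47: Tfap2c, Dppa3, Dazl, Tex19.1, Taf7l, Zscan4c and Tcstv3. They were chosen by name, with earlier results of these data known, so the counts of calls below are descriptions. All probes that the platform annotation gives them were taken. This made 10 of 38561 probes in the deposited value table, for 7 of the 18524 genes that have a probe of their own there. Tfap2c had 3 probes, Zscan4c had 2 and each of the others had 1. After a filter on dim probes, 9 of the 10 were tested among 13914 probes, and each of the 7 genes kept at least 1 probe.

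The cells were mouse ES cells of the E14tg2a line (strain 129/P2) grown in GMEM with fetal calf serum (FCS) and LIF, the cytokine that maintains self-renewal. A line with a doxycycline (dox)-inducible Tcf15-E47 construct was sampled after 0, 8, 12 and 24 h of dox at 1 µg/mL, and the parental line, as the control, after 0 and 8 h. Each of the 6 groups had 2 Illumina arrays (n = 2 for every group value below), and no label says that they came from separate cultures, so p-values measure only the spread between these samples, which may be technical. The labels do not give the promoter that drives the construct or how many clones were used. Parental cells were not sampled at 12 or 24 h, so at these times induction of Tcf15-E47 cannot be told apart from dox itself or from time in culture. Tcf15 is a basic helix-loop-helix factor. The E protein E47, a splice form encoded by Tcf3, dimerizes with such factors. The Tcf3 probe ILMN_2596277 averaged 6.23, 5.92 and 6.01 log2 units after 8, 12 and 24 h of dox in Tcf15-E47 cells, against 4.95 without dox (limma adjusted p = 0.0263, 0.00388 and 0.00395). The other Tcf3 probe, ILMN_2596278, averaged 6.32, 6.52 and 6.05 log2 units, against 5.12 without dox, and did not pass at 8 h (adjusted p = 0.116, 0.00194 and 0.027). The Tcf15 probe averaged 9.97, 9.90 and 10.04 log2 units at these times, against 9.94 without dox, and whether either probe lies within the construct is not given in the sources used here.

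Primordial germ cells are set aside from the epiblast early in development, and ES cells already transcribe a number of the genes that later mark the germ line. Many of these genes carry CpG-rich promoters that are silenced by DNA methylation and by complexes such as E2F6, MGA and MAX in somatic lineages. A small and changing fraction of ES cells passes through a state that resembles the 2-cell embryo, in which Zscan4 family genes and their companions such as Tcstv3 are switched on. The arrays measured RNA from whole cultures, in which fewer cells in such a state and less RNA per cell cannot be told apart.

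The promoter sequences are shown because Tcf15-E47 belongs to a class of factors that bind the E-box, CANNTG, and because CpG content is a feature that silenced germline genes share. RefSeq windows on GRCm38.p6 from 250 bases before to 50 bases after the gene start were matched for 4 of the 7 genes. Each is printed 5′ to 3′ on the strand of the gene with every CANNTG in capitals, for Tex19.1 (chr11:121145893-121146192, plus strand), Taf7l (chrX:134476441-134476740, minus strand), Dazl (chr17:50293571-50293870, minus strand) and Zscan4c (chr7:11005495-11005794, plus strand).
Tex19.1: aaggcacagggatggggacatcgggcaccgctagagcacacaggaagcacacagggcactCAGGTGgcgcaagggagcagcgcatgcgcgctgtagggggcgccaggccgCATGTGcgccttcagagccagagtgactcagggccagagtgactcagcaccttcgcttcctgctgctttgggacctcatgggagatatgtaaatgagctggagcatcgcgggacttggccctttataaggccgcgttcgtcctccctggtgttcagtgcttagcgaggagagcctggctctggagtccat
Taf7l: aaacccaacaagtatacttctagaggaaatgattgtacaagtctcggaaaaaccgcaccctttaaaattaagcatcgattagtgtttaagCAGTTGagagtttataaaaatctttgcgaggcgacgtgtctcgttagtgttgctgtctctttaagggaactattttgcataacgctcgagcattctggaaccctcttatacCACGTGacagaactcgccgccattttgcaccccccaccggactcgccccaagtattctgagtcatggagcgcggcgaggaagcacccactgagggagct
Dazl: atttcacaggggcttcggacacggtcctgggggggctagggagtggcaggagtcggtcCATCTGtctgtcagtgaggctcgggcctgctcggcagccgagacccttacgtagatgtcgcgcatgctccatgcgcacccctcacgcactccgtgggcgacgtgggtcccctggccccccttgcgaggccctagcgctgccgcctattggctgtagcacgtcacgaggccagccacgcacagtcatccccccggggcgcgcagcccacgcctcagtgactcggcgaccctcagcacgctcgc
Zscan4c: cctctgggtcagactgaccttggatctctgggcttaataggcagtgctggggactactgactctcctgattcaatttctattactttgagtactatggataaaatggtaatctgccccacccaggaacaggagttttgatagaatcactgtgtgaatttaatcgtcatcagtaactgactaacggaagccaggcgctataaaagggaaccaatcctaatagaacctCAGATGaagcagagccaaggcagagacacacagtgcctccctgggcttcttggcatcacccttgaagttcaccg
Tfap2c, Dppa3 and Tcstv3 are named only.

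The window of Tex19.1 held 2 matches to CANNTG, starting 190 and 140 bases before the gene start (positions −190 and −140), and the match at −190 was also CACCTG, read on the opposite strand. Taf7l also held 2, at −160 and −49, and the match at −49 was CACGTG. Dazl held 1, at −192, and Zscan4c held 1, at −24. Both strands were searched, and CACCTG and CACGTG are themselves forms of CANNTG. Of all 32851 windows of this length, 72.3% held CANNTG, 20.2% held CACCTG and 7.15% held CACGTG. A match is a description of these letters. CpG dinucleotides numbered 28 in the Dazl window, 17 in Taf7l, 16 in Tex19.1 and 4 in Zscan4c, against a median of 7 over all windows. The 3 germ cell genes were thus above that median and Zscan4c below it. At least as many CpG as in Dazl, Taf7l, Tex19.1 and Zscan4c stood in 14.2%, 31.4%, 33% and 68.6% of all windows. The letters TCCCGC, a core of E2F sites, were in the Tex19.1 window at −33 on the opposite strand and in 20% of all windows.

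Levels are given as background-corrected, quantile-normalized log2 units for replicates 1 and 2, and a probe counted as detected on an array at a detection p under 0.01. A probe was called changed at a Benjamini-Hochberg adjusted p under 0.05 over all 13914 probes tested with limma. After 8 h of dox 0 of the 9 tested probes were called, at a background of 0.0144% of all probes. After 12 h, 3 were called (2 of Tfap2c lower and Tex19.1 higher), at a background of 6.06% (2.39% higher and 3.67% lower). After 24 h both of these Tfap2c probes were lower and no other probe was called, at a background of 3.08% (1.25% higher and 1.83% lower). In parental cells dox for 8 h gave 0 calls, at a background of 0%. The comparisons of 8, 12 and 24 h with 0 h share the untreated Tcf15-E47 arrays, which also stand in the comparison of the untreated lines.

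**Figure D1:**
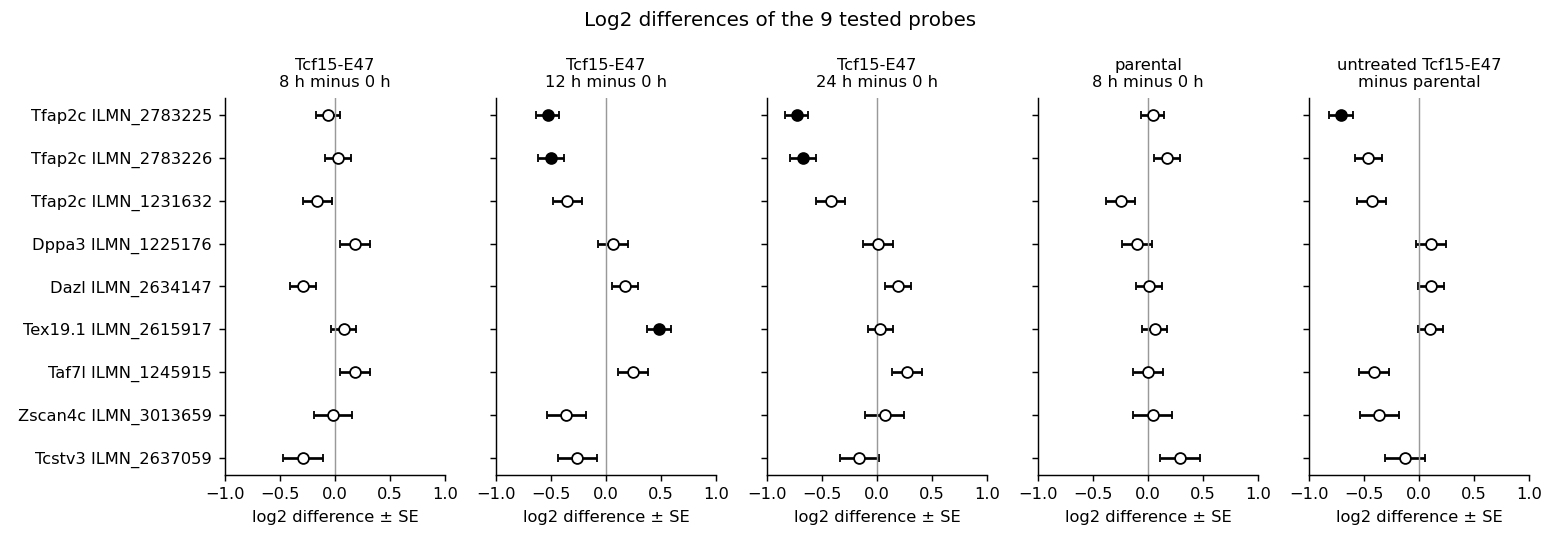
Log2 difference of each of the 9 tested probes (points, with the standard error of the fit as bars) in 5 comparisons, with filled points at an adjusted p under 0.05. Tfap2c is left of 0 at 12 and 24 h and between untreated lines, and Tex19.1 is right of 0 at 12 h (0.48) and near 0 at 24 h (0.03).

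Tfap2c encodes AP-2γ, a transcription factor required for primordial germ cells and for trophoblast. Its transcript fell after 12 h of dox, stayed lower at 24 h, and was already lower in the untreated Tcf15-E47 line than in the parental line. On probe ILMN_2783225 the Tcf15-E47 cells had 8.88 and 8.96 log2 units without dox, 8.83 and 8.88 at 8 h, 8.26 and 8.53 at 12 h, and 8.21 and 8.17 at 24 h. The parental cells had 9.59 and 9.67 without dox and 9.66 and 9.67 at 8 h. The arrays at 8 h overlapped those without dox, while all 4 arrays at 12 and 24 h lay below every earlier Tcf15-E47 array. All 4 parental arrays lay above all 8 Tcf15-E47 arrays.

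Against untreated Tcf15-E47 cells, this probe fell by 0.53 on the log2 scale at 12 h (SE 0.108, adjusted p = 0.0142), a 1.44-fold lower level. At 24 h it fell by 0.73 (SE 0.108, adjusted p = 0.00395), 1.66-fold lower. The 8 h difference was −0.06 ± 0.108 (adjusted p = 0.999). Between adjacent times the level fell by 0.46 at 12 h against 8 h (adjusted p = 0.037), a call lost with median scaling (0.306), with only the arrays compared (0.0798) and with each compared array left out (0.0501 to 0.298). The 24 h level was 0.21 below the 12 h level on the log2 scale, without passing (adjusted p = 0.372). The 12 h difference missed the threshold without replicate 1 at 12 h (−0.39, adjusted p = 0.167), without replicate 1 at 0 h (−0.57, adjusted p = 0.0603), without replicate 2 at 0 h (−0.48, adjusted p = 0.101) and with median scaling (−0.39, adjusted p = 0.197). The 24 h call was lost only without replicate 2 at 0 h (−0.69, adjusted p = 0.0554) among the single arrays left out, and in none of the 7 other settings tried.

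The probe ILMN_2783226 of the same gene gave the same order of events at a dimmer level. Tcf15-E47 cells had 7.68 and 7.75 log2 units without dox, 7.75 and 7.74 at 8 h, 7.21 and 7.23 at 12 h, and 6.88 and 7.21 at 24 h. Parental cells had 8.25 and 8.09 without dox and 8.39 and 8.29 at 8 h. The arrays at 12 and 24 h did not overlap those without dox, and the 12 and 24 h groups overlapped each other. The transcript fell by 0.50 at 12 h (SE 0.119, adjusted p = 0.0278) and by 0.67 at 24 h (adjusted p = 0.0103), which are 1.41-fold and 1.59-fold lower levels, and by 0.53 at 12 h against 8 h (adjusted p = 0.0327). The 12 h call was lost with any of the 4 compared arrays left out (adjusted p 0.0997 to 0.163). With 1 array left out, the 24 h call held without replicate 2 at 24 h (adjusted p = 0.0169) and was lost without replicate 1 at 24 h (−0.51, 0.0815), replicate 1 at 0 h (0.0589) or replicate 2 at 0 h (0.0869). With median scaling the 12 h, 24 h and 12 h against 8 h calls were lost (adjusted p = 0.183, 0.0755 and 0.173). Without the detection filter the 12 h call (0.0521) and the call against 8 h (0.0606) were lost. Leaving out each compared array in turn also lost the call against 8 h (0.131 to 0.188). Both probes measure the transcript of 1 gene (Pearson's r = 0.967 over the 12 arrays) and are not separate evidence of a biological replicate.

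The remaining Tfap2c probe, ILMN_1231632, lay close to background and was detected on 7 of 12 arrays. It had 5.07 and 5.05 log2 units without dox, 5.01 and 4.78 at 8 h, 4.57 and 4.86 at 12 h and 4.75 and 4.53 at 24 h in Tcf15-E47 cells, against 5.60 and 5.39 without dox and 5.24 and 5.24 at 8 h in parental cells. Neither array of the 12 h or of the 24 h group was above background. The lower level there is therefore only a bound. The measured mean was at least 1.04-fold lower at 12 h (adjusted p = 0.137) and at least 1.02-fold lower at 24 h (adjusted p = 0.105). Neither difference passed, and such a bound covers the background but not the spread between arrays. A bound of "at least N-fold" sets the brighter group's mean against the dim group's mean of the lowest signal among detected probes, or of the probe's own signal where that is higher. The authors' deposited table also listed ILMN_2783225 as lower at 12 h (−0.44, adjusted p = 0.0034) and at 24 h (−0.60, adjusted p = 0.00141). For ILMN_2783226 the authors' deposited table gave −0.35 at 12 h (adjusted p = 0.0166) and −0.46 at 24 h (adjusted p = 0.00761).

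**Figure D2:**
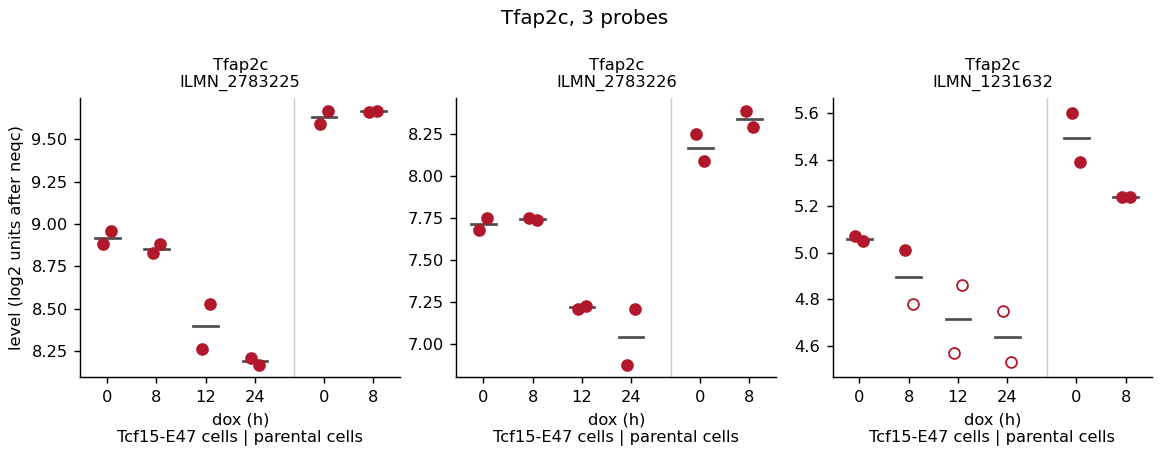
Level of the 3 Tfap2c probes on each array (log2 units after neqc), with Tcf15-E47 cells left of the parental cells and hours of dox on the x axis. Filled points are detected arrays, open points are not well above background, and bars are group means. On ILMN_2783225 the points at 12 and 24 h lie between 8.17 and 8.53, below the untreated Tcf15-E47 points at 8.88 and 8.96 and the parental points at 9.59 to 9.67.

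Markers of the culture moved over the same arrays. All 6 ES identity genes (Pou5f1, Sox2, Nanog, Zfp42, Esrrb and Utf1) were detected on all 12 arrays, and their summed linear level was 11120 to 11690 at 12 h and 11970 to 12120 at 24 h, against 13500 to 13890 without dox in Tcf15-E47 cells. The list was split, with Nanog called lower (−1.14 at 12 h and −0.99 at 24 h) and Utf1 called higher (0.46 and 0.51). The summed level of 7 primitive endoderm genes was 298.9 to 312.8 at 12 h and 306.3 to 313.2 at 24 h, against 428.7 to 446.6 without dox. Lama1, a laminin chain, fell by 0.92 at 12 h and by 1.01 at 24 h, whereas Gata6 differed by −0.05 and Sox7 by −0.20 at 12 h, neither called. Sox7 was called lower at 24 h (−0.47, adjusted p = 0.0362), where its other kept probe differed by 0.29. Neither 24 h array of the called Sox7 probe was above background (4.59 and 4.65 log2 units), so the size of that fall is limited by background. That probe passed the filter through the groups in which it was brighter. Gata4, Sox17 and Pdgfra of that list were detected on 0 arrays. The summed level of 7 fibroblast genes was 277.9 to 285.9 at 12 h and 255.4 to 289.3 at 24 h, against 257.3 to 263 without dox, with Col3a1, Postn and Lum on 0 arrays. The part of these shifts in the Tfap2c result was not tested. Parental replicate 2 at 8 h was the sole array on which Col1a1 and Col1a2 were detected.

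Between the untreated lines, Tfap2c on ILMN_2783225 was the sole call of the 9 probes, at a background of 3.48% (1.69% higher and 1.79% lower). It averaged 8.92 ± 0.058 log2 units in Tcf15-E47 cells and 9.63 ± 0.054 in parental cells (SD, n = 2 each), 1.64-fold lower in Tcf15-E47 cells (−0.71 ± 0.108 SE, adjusted p = 0.00596 by limma). The difference was −0.46 on ILMN_2783226 (adjusted p = 0.0523) and −0.43 ± 0.131 on ILMN_1231632 (adjusted p = 0.0844), so the probes shared a direction and differed in passing. The call on ILMN_2783225 was lost without Tcf15-E47 replicate 1 (−0.67, adjusted p = 0.0607) and with only the arrays compared (adjusted p = 0.0519). The authors' deposited table, which gives parental minus Tcf15-E47 cells, listed 0.64 (adjusted p = 0.000705) for ILMN_2783225 and 0.36 (adjusted p = 0.0207) for ILMN_2783226. In the same comparison the primitive endoderm sum was 428.7 to 446.6 in Tcf15-E47 cells and 493.6 to 589.6 in parental cells, with Sox7 called lower (−0.80). Of the 2 tested fibroblast genes, Dcn averaged 5.71 against 4.74 log2 units and was called higher, and Thy1 averaged 6.77 against 6.92. Neither untreated parental array of Dcn was above background (4.52 and 4.95), and its other probes were detected on 0 arrays. Dcn passed the filter through the groups in which it was brighter, so its call is given as a description. The part of these markers in the Tfap2c difference was not tested. Dox for 8 h moved the parental level by 0.04 log2 units (adjusted p = 0.979). The 8 h response in Tcf15-E47 minus parental cells was −0.10 ± 0.153 (adjusted p = 0.986).

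Tex19.1 is required for spermatogenesis and restrains retrotransposons, and it is also transcribed in ES cells and placenta. It was the sole gene of the 7 called higher with dox, and of the 3 dox times it was called at 12 h. Tcf15-E47 cells had 10.79 and 10.94 log2 units without dox, 10.83 and 11.07 at 8 h, 11.37 and 11.32 at 12 h, and 10.82 and 10.97 at 24 h. Parental cells had 10.75 and 10.78 without dox and 10.79 and 10.87 at 8 h. The 12 h pair lay above all other arrays of the series, and the 24 h pair overlapped the untreated pair.

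The 12 h difference was 0.48 ± 0.113 (SE), a 1.39-fold rise (adjusted p = 0.026), and the 24 h difference was 0.03 (adjusted p = 0.935). The authors' deposited table gave 0.47 at 12 h for the same probe (adjusted p = 0.00782). The level at 12 h stood 0.40 above that at 8 h (adjusted p = 0.0767), and the 24 h level stood at −0.45 relative to 12 h (adjusted p = 0.0745). Both of these steps passed from the authors' values (adjusted p = 0.013 and 0.0118) and with trend and robust moderation (adjusted p = 0.00742 and 0.00491). The 12 h call was lost with each of the 4 compared arrays left out: without replicate 1 at 0 h the adjusted p was 0.164, without replicate 2 at 0 h 0.0707, without replicate 1 at 12 h 0.168 and without replicate 2 at 12 h 0.0973. The difference then ran from 0.41 to 0.55. Untreated lines differed by 0.10 on the log2 scale (adjusted p = 0.665).

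Dppa3, also known as Stella, protects the maternal genome from demethylation in the zygote and marks early germ cells. It was detected on all 12 arrays and was called in 0 of the 8 comparisons. Tcf15-E47 cells had 6.40 and 6.51 log2 units without dox, 6.70 and 6.58 at 8 h, 6.61 and 6.43 at 12 h, and 6.47 and 6.47 at 24 h, and parental cells had 6.20 and 6.49 without dox and 6.42 and 6.06 at 8 h. Both arrays at 8 h were above both untreated Tcf15-E47 arrays, by 0.18 ± 0.135 log2 units (adjusted p = 0.999). Every pair of neighbouring groups in the order of levels overlapped. The differences were 0.06 at 12 h (adjusted p = 0.826), 0.01 at 24 h (adjusted p = 0.972) and 0.11 between the untreated lines (adjusted p = 0.69).

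Dazl encodes an RNA-binding protein that germ cells need to enter and complete meiosis. It was detected on all arrays, and its smallest values were at 8 h. Tcf15-E47 cells had 5.64 and 5.83 log2 units without dox, 5.38 and 5.52 at 8 h, 5.99 and 5.82 at 12 h and 5.79 and 6.05 at 24 h, and parental cells had 5.61 and 5.64 without dox and 5.65 and 5.62 at 8 h. The 8 h pair lay below all other arrays, and the groups at 12 and 24 h overlapped the untreated one. The 8 h difference was −0.29 ± 0.119 (unadjusted p = 0.0303 in limma's fit, adjusted p = 0.999), and the response at 8 h was −0.30 ± 0.168 relative to that of parental cells (adjusted p = 0.974). The 12 h level stood 0.46 above the 8 h level, short of the threshold over all probes (adjusted p = 0.0555) and past it with 1 probe per gene (adjusted p = 0.0446). Against untreated cells it was 0.17 at 12 h (adjusted p = 0.427) and 0.19 at 24 h (adjusted p = 0.444).

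Taf7l, on the X chromosome, encodes a germ cell relative of the TFIID subunit Taf7. Its Tcf15-E47 levels were 5.42 and 5.20 log2 units without dox, 5.45 and 5.54 at 8 h, 5.66 and 5.44 at 12 h and 5.46 and 5.71 at 24 h, and its parental levels were 5.57 and 5.87 without dox and 5.75 and 5.68 at 8 h. All 3 dox groups lay above the untreated Tcf15-E47 pair, with differences of 0.18, 0.24 and 0.27 at 8, 12 and 24 h that did not pass (adjusted p = 0.999, 0.314 and 0.309). These differences share that 1 untreated pair, and the lowest arrays (5.45, 5.44 and 5.46) lay close to its higher value of 5.42. The untreated Tcf15-E47 pair lay below the untreated parental pair by 0.41 (−0.41 ± 0.136, adjusted p = 0.109).

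**Figure D3:**
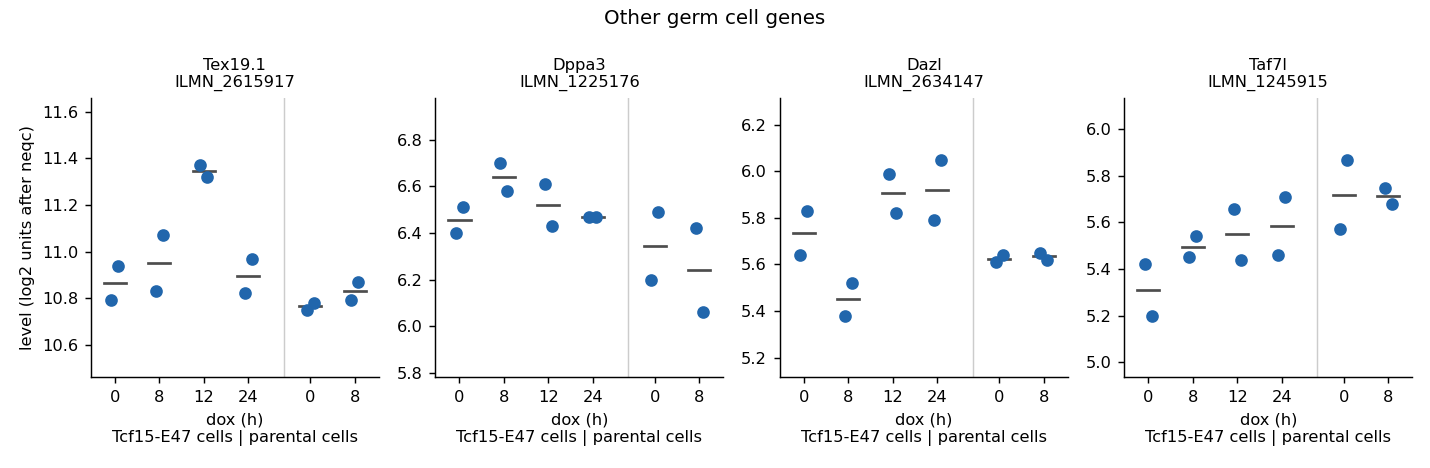
Level of Tex19.1, Dppa3, Dazl and Taf7l on each array (log2 units after neqc), with Tcf15-E47 cells left of the parental cells, hours of dox on the x axis and bars at group means. The 12 h points of Tex19.1 (11.37 and 11.32) stand above all its other points, and the 8 h points of Dazl (5.38 and 5.52) below all its others.

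The 2-cell-like genes were near the detection limit, so little could be measured for them. Zscan4c encodes a zinc finger protein that supports telomere upkeep in ES cells and is transcribed in the 2-cell embryo. The Zscan4 genes are near-identical copies, and a probe annotated to Zscan4c may also read the others. Its probe ILMN_3013659 was detected on 9 of 12 arrays, with 4.97 and 4.96 log2 units without dox, 4.93 and 4.95 at 8 h, 4.35 and 4.85 at 12 h and 4.83 and 5.24 at 24 h in Tcf15-E47 cells. Parental cells had 5.21 and 5.44 without dox and 5.53 and 5.20 at 8 h. Neither 12 h array was above background, nor was replicate 1 at 24 h, and the 12 h pair lay below the untreated pair.

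The measured 12 h difference of Zscan4c was −0.36 ± 0.175 (adjusted p = 0.244), for which no bound above 1 exists because the untreated level is itself close to the lowest detected signal. The measured 24 h mean was at least 1.02-fold above the 12 h mean (a log2 difference of 0.43 ± 0.175 SE, adjusted p = 0.244). That difference did not pass, and the arrays at 12 and 24 h overlapped. Both arrays of untreated Tcf15-E47 cells were below both untreated parental arrays (−0.36, adjusted p = 0.264). Linear signals of this probe were 93.8 to 126.4 units, where the mean background of the arrays was 85.87 to 98.75. The other Zscan4c probe, ILMN_2534628, was detected on 0 arrays and not tested, with levels of 4.18 to 4.44 log2 units on the 12 arrays.

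Tcstv3 is a 2-cell gene that accompanies Zscan4 in ES cells. Its probe was detected on 6 of 12 arrays, with 5.19 and 5.01 log2 units without dox, 4.86 and 4.76 at 8 h, 4.59 and 5.09 at 12 h and 4.99 and 4.89 at 24 h in Tcf15-E47 cells, against 4.96 and 5.49 without dox and 5.42 and 5.61 at 8 h in parental cells. Neither the 8 h nor the 24 h arrays of Tcf15-E47 cells were above background, and the probe was detected on both arrays of the parental 8 h group. The measured mean was at least 1.18-fold lower at 8 h (−0.29 ± 0.179 SE, adjusted p = 0.999). At 24 h it was at least 1.05-fold lower (−0.16 ± 0.179 SE, adjusted p = 0.699). Neither difference passed, and these bounds cover the background but not the spread between arrays. The 12 h difference was −0.26 (adjusted p = 0.416). In parental cells the 8 h difference was 0.29 (adjusted p = 0.849), and the 8 h response of Tcf15-E47 minus parental cells was −0.58 ± 0.253 (unadjusted p = 0.0405, adjusted p = 0.947 by limma). The background of calls for this difference of responses was 0% of all probes. ILMN_3013659 of Zscan4c, the Tcstv3 probe and ILMN_1231632 of Tfap2c passed the filter through the groups in which they were brighter.

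**Figure D4:**
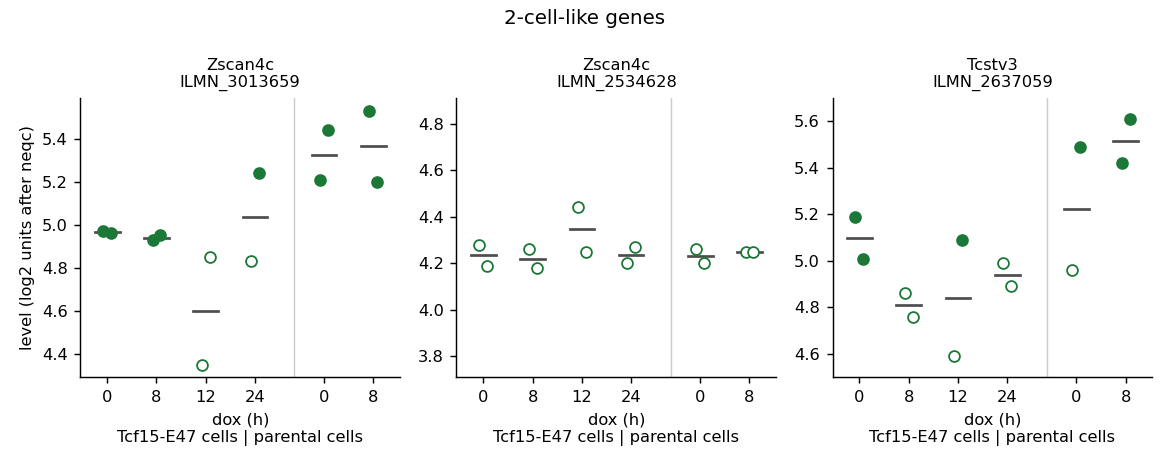
Level of both Zscan4c probes and of Tcstv3 on each array (log2 units after neqc), with Tcf15-E47 cells left of the parental cells and hours of dox on the x axis. Open points are not well above background, filled points are detected, and bars are group means. The 12 points of ILMN_2534628 are all open, and all 4 parental points of ILMN_3013659 are filled.

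Between adjacent times, the 2 calls at 12 h against 8 h were the Tfap2c probes already given, at a background of 3.24% (2.22% lower). At 24 h against 12 h 0 of the 9 probes were called, at a background of 0.949%, with Tex19.1 and Zscan4c under an unadjusted p of 0.05 in limma, as were 2251 of all 13914 probes. At 8 h against 0 h in Tcf15-E47 cells Dazl alone was under that value, in parental cells 0 were, and in the difference of the 8 h responses Tcstv3 alone was. Over all 13914 probes, 598, 878 and 718 were under it in these 3 comparisons.

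Lists of related genes place the 7 beside their pathways. These lists leave out the 7 genes themselves and use 1 probe per gene. They too were chosen with earlier results of these data known, so their counts and medians are descriptions. Of 26 germ cell and primordial germ cell genes, 16 were tested, and 10 were too dim, among them Prdm1, Nanos3, Ddx4, Stra8 and Figla. Dox for 12 h gave 1 higher and 0 lower (median 0.06, against 0.01 over all probes), and 24 h gave 0 higher and 1 lower (median −0.01), where the background was 2.39% higher at 12 h and 1.83% lower at 24 h.

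Piwil2, a PIWI protein that binds piRNAs, had 6.17 and 6.19 log2 units at 12 h, against 5.37 and 5.82 without dox in Tcf15-E47 cells. It rose by 0.58 (adjusted p = 0.0427), and untreated parental cells had 6.02 and 5.91. The call was lost without replicate 1 at 0 h (0.36, adjusted p = 0.285), without replicate 1 at 12 h (adjusted p = 0.186), without replicate 2 at 12 h (adjusted p = 0.156) and without the filter (adjusted p = 0.125). Prdm14, a regulator of naive pluripotency and of germ cell specification, had 4.45 and 4.89 log2 units at 24 h, against 5.26 and 5.43 without dox. Both 24 h values lay at background level, which makes it at least 1.24-fold lower there (adjusted p = 0.0422), with the call lost without replicate 1 at 24 h (−0.45, adjusted p = 0.233), replicate 1 at 0 h (0.118) or replicate 2 at 0 h (0.228). It was also lost from the authors' values (0.0933), without the filter (0.134) and with only the arrays compared (0.0597). Prdm14 passed the filter through the groups in which it was brighter, so its 24 h call is given as a description. Its other probe was detected on 0 arrays.

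Of 20 germline genes that promoter methylation holds off in somatic cells, 8 were tested. Dox for 12 h gave 2 higher and 0 lower, with a median of 0.30 against 0.01 over all probes and a background of 2.39% higher. Dox for 24 h gave 0 calls, with a median of 0.13 and a background of 3.08%, too low a share for 0 of 8 to be informative. Tuba3a, an alpha-tubulin of testis, had 7.80 and 7.70 log2 units at 12 h, against 7.16 and 7.17 without dox, and it rose by 0.59 (adjusted p = 0.00834). At 24 h it had 7.23 and 7.39, and its 12 h pair, like that of Tex19.1, lay above both neighbouring times. Its 3 other kept probes differed by 0.34, 0.62 and 0.37 at 12 h. Tdrkh, a Tudor domain protein of the piRNA pathway, had 6.40 and 6.52 log2 units at 12 h, against 5.90 and 5.92 without dox, and it rose by 0.55 (adjusted p = 0.0213). Stk31, which is transcribed in testis, had 5.58 and 5.69 at 12 h, against 5.11 and 4.86 at 8 h. Without dox it had 5.22 and 5.19, and it was not called at 12 h against 0 h. From 8 to 12 h Stk31 rose by 0.65 (adjusted p = 0.0358) and Tuba3a by 0.45 (adjusted p = 0.0403), at a background of 1.02% higher. The other probes of Stk31 and Tdrkh were detected on 0 arrays. With single arrays left out, the 12 h call of Tdrkh was lost each time (adjusted p 0.0903 to 0.133), that of Tuba3a was lost except without replicate 2 at 12 h (0.0372), at up to 0.0936 without replicate 1 at 12 h, and both calls against 8 h were lost each time (0.0876 to 0.254). The Tuba3a call against 8 h was also lost with median scaling (0.0953), without the filter (0.0523) and with only the arrays compared (0.0606), and that of Stk31 from the authors' values (0.0544) and without the filter (0.106).

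Of 32 genes of the 2-cell-like and Zscan4 state, 20 had a probe and 4 were tested, the other 16 being too dim. AF067061 and Gm428 passed the filter through the groups in which they were brighter, so the count and median of these 4 are a description and do not stand for the list. At 12 h 2 of the 4 were lower and 0 higher, with a median of −0.54 against 0.01 over all probes and a background of 3.67% lower. AF067061 had 4.71 and 5.03 log2 units at 12 h, against 5.65 and 5.81 without dox, and fell by 0.86 (adjusted p = 0.00511). Replicate 1 at 12 h was not above background, and at 24 h the gene had 5.35 and 5.42. Gm428 had 4.68 and 4.75 log2 units at 12 h, neither above background, against 5.64 and 5.33 without dox, and it was at least 1.39-fold lower (adjusted p = 0.0141). Gm5662 differed by −0.32 (adjusted p = 0.255) and Eif1a by −0.05 (adjusted p = 0.853). At 24 h 0 of the 4 were called, at a background of 3.08%, with a median of −0.34. Against 8 h, AF067061 fell by 0.65 at 12 h (adjusted p = 0.0321).

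These 2-cell calls also rested on few arrays. The 12 h call of AF067061 was lost without replicate 2 at 0 h (−0.77, adjusted p = 0.0544) and without replicate 1 at 12 h (−0.70, adjusted p = 0.0759). That of Gm428 was lost without replicate 1 at 0 h (−0.62, adjusted p = 0.122), without replicate 1 at 12 h (0.112), without replicate 2 at 12 h (0.0632) and without the filter (0.0611). The AF067061 call against 8 h was lost with any compared array left out (adjusted p 0.0527 to 0.254), from the authors' values (0.0796) and without the filter (0.0957). AF067061 and Gm428 shared with Zscan4c a 12 h pair below the untreated pair with at least 1 array not above background. So did the dim Tfap2c probe ILMN_1231632 (4.57 and 4.86 against 5.07 and 5.05). Tcstv3 did not, since its 12 h arrays (4.59 and 5.09) overlapped the untreated ones (5.19 and 5.01).

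Of 24 repressors and regulators of germline and 2-cell genes, such as Trim28, Setdb1, Kdm1a, Mga, Max and Dnmt1, 21 were tested. In each of the 5 comparisons between dox times of Tcf15-E47 cells 0 were called, with medians from −0.05 to 0.01. The background against 0 h was 0.0144% of all probes at 8 h, 6.06% at 12 h and 3.08% at 24 h. It was 3.24% at 12 h against 8 h and 0.949% at 24 h against 12 h. With 21 genes at these shares, 0 calls do not show that the list was unaffected.

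**Figure D5:**
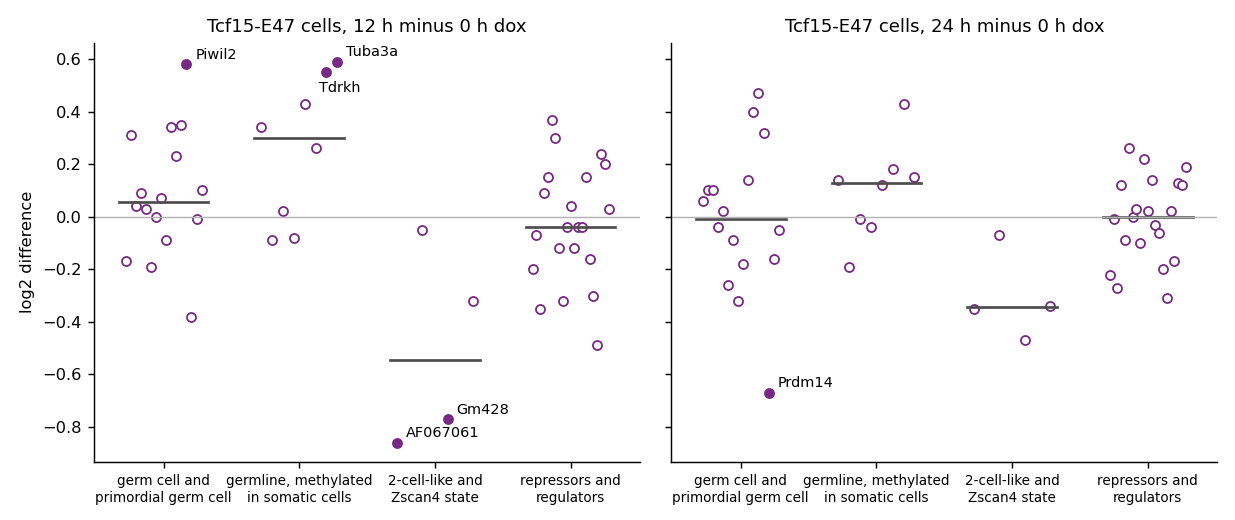
Log2 difference of each tested gene (points) at 12 h and at 24 h of dox against 0 h in Tcf15-E47 cells, for the 4 lists, with filled, named points at an adjusted p under 0.05 and bars at list medians. At 12 h the 8 tested germline genes methylated in somatic cells have a median of 0.30 and the 4 tested 2-cell-like genes one of −0.54. AF067061 and Gm428 of these 4 passed the filter through brighter groups, so their median does not stand for the list.

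The untreated lines differed in further germline genes. Kit, the receptor that primordial germ cells need for survival and migration, had 7.07 and 7.22 log2 units in Tcf15-E47 cells and 7.90 and 7.87 in parental cells, a difference of −0.75 (adjusted p = 0.00784), lost without Tcf15-E47 replicate 1 (−0.67, adjusted p = 0.0749) and with only the arrays compared (0.0502). It was the sole call among 16 germ cell genes (median −0.22), at a background of 1.79% lower. Of the 8 tested germline genes methylated in somatic cells, 1 was higher and 1 lower, at a background of 1.69% higher and 1.79% lower. Their median was 0.01, as over all probes. Rhox9, an X-linked homeobox gene of gonads, had 5.59 and 5.74 in Tcf15-E47 cells and 6.66 and 6.83 in parental cells. Its difference of −1.08 (adjusted p = 0.00186) passed with any array left out. Stag3, a meiotic cohesin subunit, was higher in Tcf15-E47 cells, with 8.08 and 8.05 against 7.59 and 7.66 (0.44, adjusted p = 0.0319). That call was lost with any array left out (0.0834 to 0.147), with median scaling (0.0701) and with only the arrays compared (0.129). Among the 21 tested repressors and regulators, Zmym2, a zinc finger protein linked to the LSD1 corepressor, was the sole call, at a background of 1.79% lower. It had 9.08 and 9.28 in Tcf15-E47 cells against 9.60 and 9.60 in parental cells (−0.42, adjusted p = 0.047). That call was lost with any array left out (0.0919 to 0.247), with median scaling (0.363) and with only the arrays compared (0.15). The 4 tested 2-cell-like genes gave 0 calls between the lines (median −0.12), at a background of 3.48%.

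The probes with the pattern most like each member's over the 12 arrays were found by Pearson's correlation of log2 values. These values are descriptions, since the arrays share groups of the same line and time. For Tfap2c they were Hr (r = 0.989), Tubb2b (0.986) and Bicral (0.984) on ILMN_2783225, Bmp4 (0.987), Stard8 (0.981) and Hr (0.977) on ILMN_2783226, and Ets2 (0.966), Mb21d2 (0.951) and Zfp296 (0.948) on ILMN_1231632. Hr was shared by both brighter Tfap2c probes. For Tex19.1 they were Taf12 (0.945), Ostc (0.939) and Prorsd1 (0.931), for Dppa3 Cbfa2t2 (0.918), Clpp (0.909) and Svbp (0.892), and for Dazl Rilpl1 (0.90), Ppfibp2 (0.90) and Nap1l1 (0.898). For Taf7l they were Cgrrf1 (0.899), Zswim6 (0.87) and Ccn1 (0.868), for Zscan4c Pawr (0.925), Nrd1 (0.917) and Kif13b (0.916), and for Tcstv3 Tpm2 (0.909), Pgm1 (0.904) and Pou4f1 (0.886). No other member was among the 3 closest of any member.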

How the data were processed

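RNA (100 ng, amplified to biotin-labelled cRNA per the labels' protocols) was measured on 12 Illumina arrays in 6 groups of 2. The authors deposited a non-normalized table with the bead signal intensity per array and, per the file headers, a matching detection p-value. The deposited value table holds log2 values, quantile normalized without background subtraction as the values show. The submitters' processing notes name limma, and a deposited table of comparisons holds the authors' log2 fold changes and adjusted p-values.

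The non-normalized table's entry names matched 0 of 38561 probe names. Quantile normalization keeps the order of values, so the signal of each probe was recovered by matching values. Of 30854 entries, 17062 were tied to a probe of their own. When 8531 of these tied entries were held out, 100% returned the same probe, with a median miss of 9.1e-06 log2. The held-out entries had already been matched, so this check does not cover entries or probes that were not tied. The 3 Tfap2c probes and the Dazl probe were not tied to an entry of their own, and their signals and detection p-values were read from each array's curve through the tied probes (scikit-learn 1.9.0, scipy 1.17.1). Signals were background-corrected and quantile-normalized with neqc (limma 3.58.1, R 4.3.3; offset 16). The filter kept the 13914 probes that 2 or more arrays detected (p under 0.01). Group means were fitted over all arrays (6 residual and 7.04 prior degrees of freedom; two-sided moderated test) in 8 comparisons, with Benjamini-Hochberg adjustment. The fit was tested on simulated data. The number of arrays limits precision: median signal was 88.98 to 103.1 units, 30.7% to 34.7% of probes were detected per array, and replicates correlated at 0.993 to 0.996.

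Genes were named from the platform annotation (32093 probes with 1 gene, 16 with several, 6452 with none). The text names every probe of the 7 genes, at most 4 called genes per list and comparison (the kept probe with the highest mean), and the 3 most alike probes of each tested probe. Gm5662 and Eif1a, and the untested and uncalled genes given as examples of a list, were named after their values were seen. The members and lists were chosen with earlier results of these data known. The main fit did not pair samples by replicate number. Alternatives were the authors' values, median scaling, no filter, 1 probe per gene, trend and robust moderation, a replicate block, only the arrays compared, and leaving out each array.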

Additional observations from a re-analysis of the deposited data

How the results depend on the processing

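Of the 9 tested probes, 3 were called at 12 h against 0 h, 1 with median scaling and 0 to 1 with each compared array left out in turn. At 24 h 2 were called, 1 with median scaling or 1 probe per gene, and 0 to 2 with an array left out. At 12 h against 8 h 2 were called, 0 with median scaling, 1 without the detection filter or with only the arrays compared, and 0 with an array left out. At 24 h against 12 h 0 were called, and 1 with the values of the authors or with trend and robust moderation. Between the untreated lines 1 was called, 2 with the values of the authors or with trend and robust moderation, 0 with only the arrays compared, and 0 to 1 with an array left out. In the comparisons at 8 h 0 were called in every setting run. No called value changed sign. The causes were not tested.

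Over all probes, counts called moved further. At 12 h 843 were called, 1276 from the authors' values, 536 with median scaling, 1279 with trend and robust moderation and 143 to 289 with an array left out. At 24 h 428 were called, 675 from the authors' values, 277 without the filter, 724 with trend and robust moderation, 229 with only the arrays compared and 72 to 135 with an array left out. At 12 h against 8 h 451 were called, and in the same order 808, 285, 788 and 290, with 195 under median scaling and 57 to 122 with an array left out. At 24 h against 12 h 132 were called, and in the same order 349, 71, 420 and 16, with 2 to 11 with an array left out. Between lines 484 were called, 929 from the authors' values, 270 with median scaling, 989 with trend and robust moderation, 42 with only the arrays compared and 51 to 382 with an array left out. At 8 h in Tcf15-E47 cells 2 were called, 7 with trend and robust moderation, 6 with the values of the authors, 0 without the filter, with 1 probe per gene, with the replicate block or with only the arrays compared, and 0 to 1 with an array left out. In parental cells 0 were called, 18 with median scaling, 1 with trend and robust moderation and 0 to 57 with an array left out. The difference of responses gave 0, 2 from the authors' values, 6 with median scaling, 3 with trend and robust moderation and 0 to 9 with an array left out.

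The median of all probes at 24 h was 0.121 with median scaling and 0.004 with quantile normalization, and the split of calls became 321 higher and 215 lower at 12 h (332 and 511 in the quantile-normalized fit), 281 and 92 at 24 h (174 and 254), 80 and 115 at 12 h against 8 h (142 and 309) and 207 and 63 between lines (235 and 249). With it the 12 h values were −0.39 and −0.40 for the brighter Tfap2c probes, neither called (adjusted p = 0.197 and 0.183), and 0.68 for Tex19.1, called (0.00734). Replicate numbers showed no clear pairing of the samples. Correlations of deviations ran from −0.0796 to 0.151 over 15 pairs of groups. Those above 0.1 were the 3 among Tcf15-E47 cells at 0, 8 and 24 h. Such correlations cannot exclude a pairing. A replicate block left the counts of the 9 probes as they were in all 8 comparisons, and the calls of Piwil2 at 12 h (0.0539), Tuba3a at 12 h against 8 h (0.0526) and Zmym2 between lines (0.0551) were lost under it. Duplicates and signals near background limit what could be seen of Zscan4c and Tcstv3.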
